A study of Mus musculus with 6 samples.

Results

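The basement membrane genes of mouse blastocysts were examined in embryos cultured with oviductal extracellular vesicles (oEVs) of women with endometriosis (oEV-EMT) or of controls (oEV-ctrl). The 10 genes were chosen by symbol from the 55774 genes of the expression table. They are the laminin chains Lama1, Lama5, Lamb1 and Lamc1, the collagen IV chains Col4a1 and Col4a2, the linker Nid1, the heparan sulfate proteoglycans Hspg2 and Agrn, and the matricellular gene Sparc. Agrn, which encodes agrin, was chosen because it was higher with oEV-EMT in these same libraries, so its difference is given as a description and without a test.

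Wild-type ICR embryos at the two-cell stage were flushed from females aged 6 to 8 weeks and cultured for 75 hours in CZB, a simple embryo medium, with vesicles from human Fallopian tubal fluid. The oEV-EMT group received vesicles of women with endometriosis. The oEV-ctrl group received vesicles of women with uterine fibroids according to the sample labels, whereas the study's methods name a different gynaecological condition for its controls. RNA was sequenced after poly(A) selection from 3 pools per group, each of 10 blastocysts. A pool holds all lineages of the blastocyst, and human vesicles were given to mouse embryos. Which donors supplied the vesicles of which pool is not given in the sources used here, so the p-values measure the spread between pools only. Blastocysts grown without vesicles were not analysed here.

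A basement membrane is a thin sheet of extracellular matrix on which epithelia rest. Laminins, each a trimer of an alpha, a beta and a gamma chain, and collagen IV, a trimer of alpha chains, form separate networks, which nidogen and heparan sulfate proteoglycans link to each other and to cell surface receptors. In the late blastocyst a basement membrane separates the primitive endoderm from the epiblast and lines the inner face of the trophectoderm, and the primitive endoderm and the parietal endoderm derived from it are known as strong producers of laminin and collagen IV.

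Levels are given in FPKM (fragments per kilobase of a transcript, scaled to the size of the library), in the order oEV-EMT 1, 2 and 3, then oEV-ctrl 1, 2 and 3. A log2 fold change is the difference of the group means of log2(FPKM + 1), oEV-EMT minus oEV-ctrl, which understates the change of genes with low FPKM. Its standard error (SE) and adjusted p-value come from limma with Benjamini-Hochberg adjustment over 11924 genes. The median gene had a log2 fold change of 0.17, and a relative log2 fold change is what remains after this shift is subtracted. All p-values from limma refer to the difference before that subtraction.

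The library oEV-EMT 1 stood apart. Its log2 values correlated at 0.956 with both other oEV-EMT libraries, whereas the remaining pairs within a group correlated at 0.973 to 0.982. It was also the deepest, at 2.07 times the depth of the shallowest library, oEV-ctrl 1, as derived from the whole-number steps of low FPKM. It held the highest value of 9 of the 10 basement membrane genes and of 37.4% of all genes tested. Values without it are therefore given beside the results. Of other cell types that could enter a pool, 0 of 9 cumulus and granulosa markers reached the filter, 5 of them were at 0 in every library, and their summed level was at most 0.486 FPKM. Of 6 oviduct epithelium markers, Foxj1 and Krt5 were listed at 0 in every library and Wfdc2, a secreted protease inhibitor gene, alone reached the filter. Ovgp1, Pax8 and Pigr were at most at 0.296, 0.148 and 0.0412 FPKM. FPKM of Wfdc2 were 131, 100 and 116 with oEV-EMT and 81.9, 74.7 and 73.7 with oEV-ctrl (log2 fold change 0.58, SE 0.19, adjusted p = 0.214, limma). Wfdc2 was thus higher without overlap, as were 18.1% of all genes tested, and its part in the results was not tested. Blood markers summed to at most 4.41 FPKM.

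Across the 10 genes, Agrn stood higher in oEV-EMT by a ratio of means of 4.47, and the other 9 had ratios of 0.816 to 2.33. The laminin chains Lama1, Lama5 and Lamc1 had means 1.31, 1.39 and 1.33 times as high in oEV-EMT, Sparc 1.58 times and Col4a2 1.29 times, and Hspg2, at very low levels, 2.33 times. Lamb1 and Nid1 had ratios near unity, at 1.04 and 0.981, and Col4a1 was at 0.816. None of the 8 other genes tested passed both thresholds, which were an adjusted p no higher than 0.05 and a log2 fold change of 1 or more in either direction. The share of all genes that passed was 0%, since 0 of 11924 did so by limma. At an unadjusted p of at most 0.05, 0 of the 8 were higher or lower, whereas 1527 of all genes tested (12.8%) were higher and 304 (2.55%) were lower. These shares, also given beside the other lists, depend on the scaling between libraries. With median-of-ratios scaling 779 genes were higher and 765 lower, and with upper quartile scaling 550 and 963. Lamc1 was the single member with all oEV-EMT values above all oEV-ctrl values, a pattern that 18.1% of all genes tested had, and 4.34% had the opposite one.

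**Figure D1:**
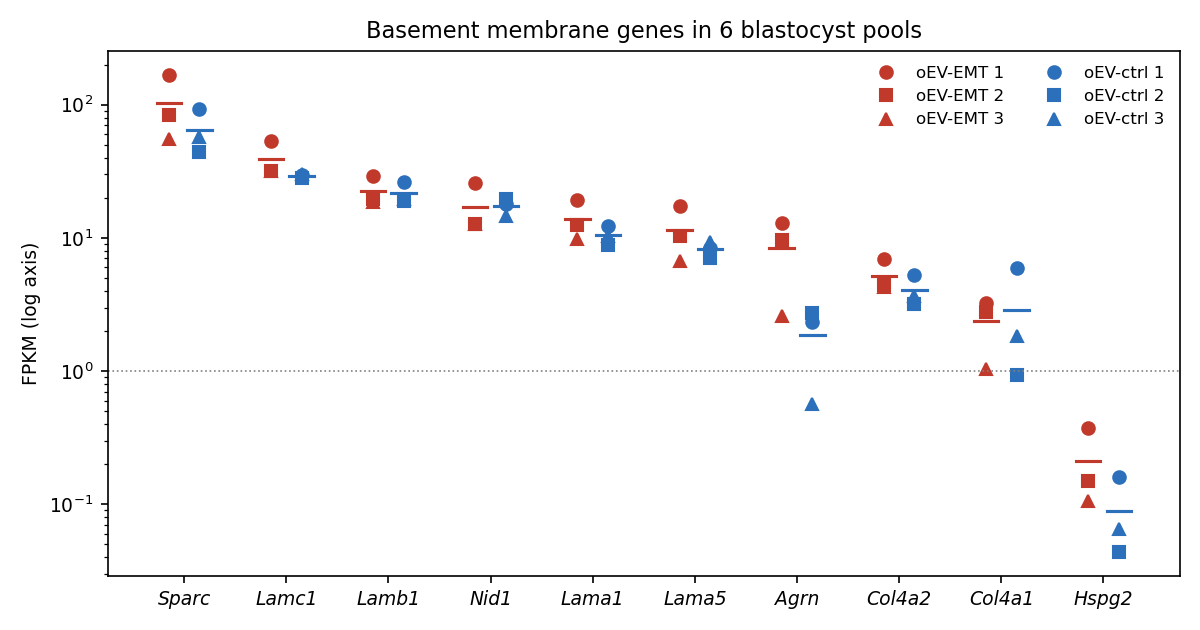
FPKM of the 10 basement membrane genes (log axis) in each of the 6 libraries, ordered by mean level, with oEV-EMT in red, oEV-ctrl in blue, the marker shape giving the library number, horizontal bars the group means and the dotted line 1 FPKM. Sparc lies highest at 44.2 to 168 FPKM, Hspg2 lies under the line in every library, and Agrn spreads from 0.564 to 13.

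The plot of levels by library shows an order that held in most libraries. Mean FPKM over the 6 libraries was 83.5 for Sparc, 34.1 for Lamc1, 22.1 for Lamb1, 17.3 for Nid1, 12.1 for Lama1 and 9.82 for Lama5. It was 5.16 for Agrn, 4.62 for Col4a2, 2.62 for Col4a1 and 0.15 for Hspg2. Sparc lay at the 88.2 percentile of all genes tested and Col4a1 at the 23.1 percentile. FPKM are scaled per length, so these levels allow a rough comparison between genes. Coverage along the transcripts, the longest of which run from 2300 bases (Sparc) to 14187 (Hspg2), was not examined. Each gene was above the next in the order in 6 of 6 libraries, apart from Lamb1 over Nid1 and Col4a2 over Col4a1, which held in 5, and Agrn over Col4a2, which held in 2. Agrn was the least even member. Its highest library was 23.1 times its lowest, against 8.46 times for Hspg2, 6.39 times for Col4a1, 3.81 times for Sparc and 1.56 times for Lamb1.

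Laminin chains came first among the structural members, since laminin is the polymer on which a basement membrane is built. Lamc1 (ENSMUSG00000026478, GRCm38 chr1:153218922-153332786, minus strand) encodes the gamma chain shared by most laminins. Its FPKM were 53.2, 31.5 and 32 with oEV-EMT and 29.7, 28 and 30 with oEV-ctrl. No value of one group reached into the other, but oEV-EMT 2 and 3 exceeded the highest control by little and oEV-EMT 1 was by far the highest. Group means were 38.9 ± 12.4 and 29.2 ± 1.09 (SD, n = 3 each). The log2 fold change of Lamc1 was 0.36 (SE 0.24, adjusted p = 0.502, limma), or 0.19 relative to the median gene, and it was 0.12 without oEV-EMT 1. With median-of-ratios or upper quartile scaling of the libraries the groups of Lamc1 overlapped.

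Lamb1 (ENSMUSG00000002900, chr12:31265234-31329644, plus strand) encodes the beta chain that joins this gamma chain. Its FPKM were 29.2, 19.5 and 18.7 with oEV-EMT and 26.4, 18.9 and 19.6 with oEV-ctrl. Library 1 was the highest of each group, and the groups overlapped throughout. Its log2 fold change was 0.04 (SE 0.24, adjusted p = 0.953, limma), or -0.13 relative to the median gene, and it turned to -0.16 without oEV-EMT 1. The within-library ratio of Lamc1 to Lamb1, which does not depend on scaling between libraries, was 1.82, 1.61 and 1.71 in oEV-EMT and 1.12, 1.48 and 1.53 in oEV-ctrl. All oEV-EMT ratios of this pair lay above the oEV-ctrl ratios. This ratio was not a planned one, no test was made of it, and the share of other gene pairs that separate so was not computed.

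Lama1 (ENSMUSG00000032796, chr17:67697259-67822647, plus strand) and Lama5 (ENSMUSG00000015647, chr2:180176373-180225859, minus strand) encode the alpha chains of laminin-111 and laminin-511, the chains that cell receptors bind. FPKM of Lama1 were 19.2, 12.5 and 9.77 with oEV-EMT and 12.2, 8.87 and 10.4 with oEV-ctrl. FPKM of Lama5 were 17.2, 10.4 and 6.65 with oEV-EMT and 8.39, 7.01 and 9.28 with oEV-ctrl. For both alpha chains oEV-EMT 1 was highest and oEV-EMT 3 lay inside or under the control range. The log2 fold change was 0.33 for Lama1 (SE 0.27, adjusted p = 0.588) and 0.35 for Lama5 (SE 0.31, adjusted p = 0.619, limma). Without oEV-EMT 1 it was 0.08 for Lama1 and 0.02 for Lama5.

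The balance of the 2 alpha chains was compared within libraries. The ratio of Lama5 to Lama1 was 0.897, 0.834 and 0.681 in oEV-EMT and 0.688, 0.79 and 0.891 in oEV-ctrl. Lama1 was thus the higher chain in every library, and the groups covered nearly the same range. The mean log2 ratio was -0.32 ± 0.21 and -0.35 ± 0.19 (SD, n = 3 each), a difference of 0.02 with p = 0.9 in an exact two-sided permutation test, in which 3 libraries against 3 cannot go below 0.1.

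Collagen IV chains are added to the laminin sheet and give it its tensile strength. Col4a1 (ENSMUSG00000031502, chr8:11198423-11312826, minus strand) and Col4a2 (ENSMUSG00000031503, chr8:11312805-11449287, plus strand) are arranged head to head and encode the alpha1 and alpha2 chains, which assemble in a fixed proportion into the common collagen IV trimer. Their annotated exons share 22 bases, where reads of one could be counted for the other if strand was not used. FPKM of Col4a1 were 3.26, 2.77 and 1.03 with oEV-EMT and 5.92, 0.928 and 1.82 with oEV-ctrl. FPKM of Col4a2 were 6.9, 4.41 and 4.29 with oEV-EMT and 5.3, 3.19 and 3.63 with oEV-ctrl. Col4a1 had its highest and its lowest value in the same group, oEV-ctrl, and Col4a2 varied much less. The log2 fold change was -0.07 for Col4a1 (SE 0.49, adjusted p = 0.959) and 0.29 for Col4a2 (SE 0.26, adjusted p = 0.612, limma). The one of Col4a1 turned to 0.46 without oEV-ctrl 1 and to 0.26 without oEV-EMT 3.

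The head-to-head pair was not level within libraries. The ratio of Col4a1 to Col4a2 was 0.473, 0.629 and 0.241 in oEV-EMT and 1.12, 0.29 and 0.5 in oEV-ctrl. Col4a2 was the higher gene in all libraries but oEV-ctrl 1. The mean log2 ratio was -1.27 ± 0.71 in oEV-EMT and -0.87 ± 0.98 in oEV-ctrl (SD, n = 3 each), a difference of -0.39 with p = 0.6 in the exact two-sided permutation test.

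Nid1 (ENSMUSG00000005397, chr13:13437551-13512269, plus strand) encodes nidogen-1, which binds the laminin gamma1 chain and collagen IV and so couples both networks. Its FPKM were 25.9, 12.8 and 12.6 with oEV-EMT and 17.9, 19.7 and 14.7 with oEV-ctrl. The oEV-EMT libraries 2 and 3 lay under every control, and oEV-EMT 1 lay above every control. Its log2 fold change was -0.09 (SE 0.29, adjusted p = 0.896, limma) with all libraries and -0.42 (adjusted p = 0.331) without oEV-EMT 1. The ratio of Nid1 to its partner Lamc1 was 0.487, 0.408 and 0.392 in oEV-EMT and 0.602, 0.705 and 0.489 in oEV-ctrl. The oEV-EMT ratios all lay under the oEV-ctrl ratios, by 0.487 against 0.489 at the nearest. This ratio was not a planned one either, and no test was made of it. Other ratios computed without a test overlapped between groups. That of Lama1 plus Lama5 to Lamb1 was 0.877 to 1.25 in oEV-EMT and 0.779 to 1 in oEV-ctrl. That of Sparc to Lamc1 was 1.72 to 3.16 in oEV-EMT and 1.58 to 3.11 in oEV-ctrl. An antisense gene, Gm48682, shares 143 exon bases with Nid1 and was at most at 0.0205 FPKM.

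Agrn (ENSMUSG00000041936, chr4:156165290-156197488, minus strand, with 36 exons in its longest transcript) encodes agrin, a heparan sulfate proteoglycan that binds laminin and the receptor dystroglycan and is best known for gathering acetylcholine receptors at the neuromuscular junction. Alternative starts of the gene are known to give a form secreted into basement membranes and a form anchored in the cell membrane. RefSeq lists 2 starts, 11229 bases apart, and the deposited value of Agrn sums over its transcripts, so the levels do not tell them apart. The 250 bases upstream of each start are shown because Agrn is the member with the largest difference, and those of Lama5 for comparison. They are from RefSeq on GRCm38.p6, written 5′ to 3′ on the gene's strand, and capitals mark the GC box letters GGGCGG on either strand, to which factors of the Sp1 family are known to bind.
Agrn upstream start, chr4:156197489-156197738, minus strand: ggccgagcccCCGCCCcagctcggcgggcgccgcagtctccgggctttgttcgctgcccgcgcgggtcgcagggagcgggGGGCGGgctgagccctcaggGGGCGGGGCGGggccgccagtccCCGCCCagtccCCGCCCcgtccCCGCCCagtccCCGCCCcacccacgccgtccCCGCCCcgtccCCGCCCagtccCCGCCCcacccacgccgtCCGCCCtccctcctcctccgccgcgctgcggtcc
Agrn downstream start, chr4:156186260-156186509, minus strand: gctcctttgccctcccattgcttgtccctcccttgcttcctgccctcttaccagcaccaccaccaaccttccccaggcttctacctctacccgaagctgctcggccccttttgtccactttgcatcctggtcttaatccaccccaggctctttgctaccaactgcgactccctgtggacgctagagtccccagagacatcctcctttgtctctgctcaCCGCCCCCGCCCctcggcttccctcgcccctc
Lama5, chr2:180225860-180226109, minus strand: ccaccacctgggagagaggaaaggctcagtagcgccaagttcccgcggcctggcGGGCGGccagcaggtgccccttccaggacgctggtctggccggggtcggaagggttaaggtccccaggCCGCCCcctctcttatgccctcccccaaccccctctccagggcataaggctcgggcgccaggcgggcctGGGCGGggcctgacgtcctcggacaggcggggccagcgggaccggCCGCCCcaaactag

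Counted on both strands with overlapping matches included, GGGCGG occurred 12 times in the window before the upstream Agrn start, 2 times before its downstream start and 4 times before Lama5. The upstream Agrn window was also rich in G and C, at 83.6%, against 60.8% before the downstream start and 72.4% before Lama5. Of the 10 members, 8 had a window in the table, and the others of these 8 held 5 matches (Hspg2), 2 each (Lamb1 and Col4a2), 1 (Nid1) or 0 (Col4a1 and Sparc). Unlike those of Agrn and Lama5, the windows of these 6 overlap annotated exons, by 250 bases for Col4a1 and Col4a2 and 238 for Sparc, so their counts are not directly comparable. Among 32851 windows of the same length, 32.7% held at least 1 match and 0.0152% held 12 or more. The count of 12 was taken from the Agrn window itself, so this share is a description. Most of its matches lie in a repeated stretch and are not independent of each other. The letters AGATAA, to which GATA factors are known to bind, occurred in 0 of the members' windows and in 9.99% of all windows. These are letter counts and were not tested against expression.

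The levels of Agrn, chosen for this difference, were 13, 9.64 and 2.6 FPKM with oEV-EMT and 2.35, 2.74 and 0.564 FPKM with oEV-ctrl. The oEV-EMT libraries 1 and 2 lay far above every control, whereas oEV-EMT 3 lay just under oEV-ctrl 2, so the groups overlapped. Group means were 8.43 ± 5.32 and 1.88 ± 1.16 (SD, n = 3 each), with a log2 fold change of 1.59, or 1.42 relative to the median gene. Leaving out 1 library at a time gave 1.20 to 2.18. The value was 1.20 without oEV-EMT 1 or without oEV-ctrl 3, and 2.18 without oEV-EMT 3. With a pseudocount of 0.1 in place of 1 it was 2.08. Other scalings of the libraries gave 1.38 to 1.54.

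**Figure D2:**
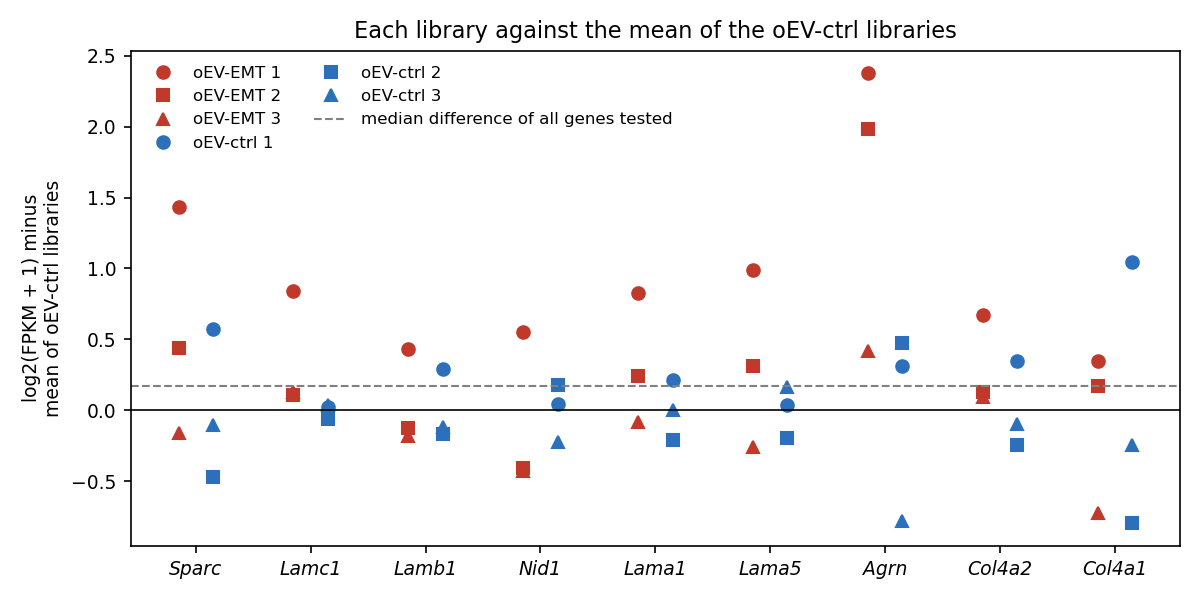
Difference of log2(FPKM + 1) from the mean of the 3 oEV-ctrl libraries, per library, for the 9 basement membrane genes that passed the filter on low values, with colours and shapes as in the plot of levels. The dashed line is the median difference of all genes tested, 0.17. For Agrn oEV-EMT 1 and 2 lie highest of all points and oEV-EMT 3 lies among the controls, while for Lamc1 all controls lie close to 0.

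Genes whose log2 values ran most like those of Agrn over the 6 libraries were Gprasp1 (Pearson r of 0.997), Glul (0.989), Nmb (0.986), Prss35 (0.982) and Rnf135 (0.979). These coefficients are descriptions over 6 points that share libraries and depth. FPKM of Glul, the glutamine synthetase gene, were 46.8, 43.1 and 35.3 with oEV-EMT and 32.8, 32.7 and 28.2 with oEV-ctrl, the same order of groups at a higher level and a much smaller spread than in Agrn. FPKM of Nmb, which encodes the peptide neuromedin B, were 7.43, 6.08 and 3.7 with oEV-EMT and 3.75, 3.41 and 2.6 with oEV-ctrl. In Nmb, as in Agrn, oEV-EMT 3 lay inside the control range.

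Hspg2 (ENSMUSG00000028763, chr4:137468769-137570630, plus strand) encodes perlecan, the large heparan sulfate proteoglycan of most basement membranes. Its FPKM were 0.372, 0.15 and 0.106 with oEV-EMT and 0.16, 0.044 and 0.0656 with oEV-ctrl. It was under 1 FPKM everywhere and was not tested, and the groups overlapped. Agrn was the dominant proteoglycan core of the 3 compared. It held 75.6% to 96.2% of the summed FPKM of Agrn, Hspg2 and Col18a1, of which Hspg2 held 1.5% to 8.8%. The lowest share of Agrn was in oEV-ctrl 3, where Agrn itself was lowest.

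Sparc (ENSMUSG00000018593, chr11:55394500-55423183, minus strand) encodes osteonectin, a secreted collagen-binding glycoprotein that is abundant in parietal endoderm. Its FPKM were 168, 83.8 and 55 with oEV-EMT and 92.4, 44.2 and 57.3 with oEV-ctrl. Library 1 was the highest of each group, and oEV-EMT 3 lay under 2 controls. Group means were 102 ± 58.9 and 64.6 ± 24.9 (SD, n = 3 each), with a log2 fold change of 0.57 (SE 0.42, adjusted p = 0.549, limma). Without oEV-EMT 1 the log2 fold change of Sparc was 0.14.

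The chains were not evenly used within their families. Lama1 held 50.1% to 58% and Lama5 38.5% to 46.2% of the summed FPKM of the laminin alpha chains, while Lama3, the alpha chain of laminin-332, held 1.31% to 4.05%. Lamb1 held 92.2% to 96.2% of the beta chains. Lama1, Lama5 and Lamb1, chains of laminin-111 and laminin-511, were thus the leading alpha and beta chains in both groups. In collagen IV, Col4a2 held 47.2% to 79.9% and Col4a1 19.3% to 52.8%, whereas each of Col4a3 to Col4a5 held at most 0.456% and Col4a6 was at 0. Nid1 held 89.5% to 94.4% of the nidogens, the remainder being Nid2.

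**Figure D3:**
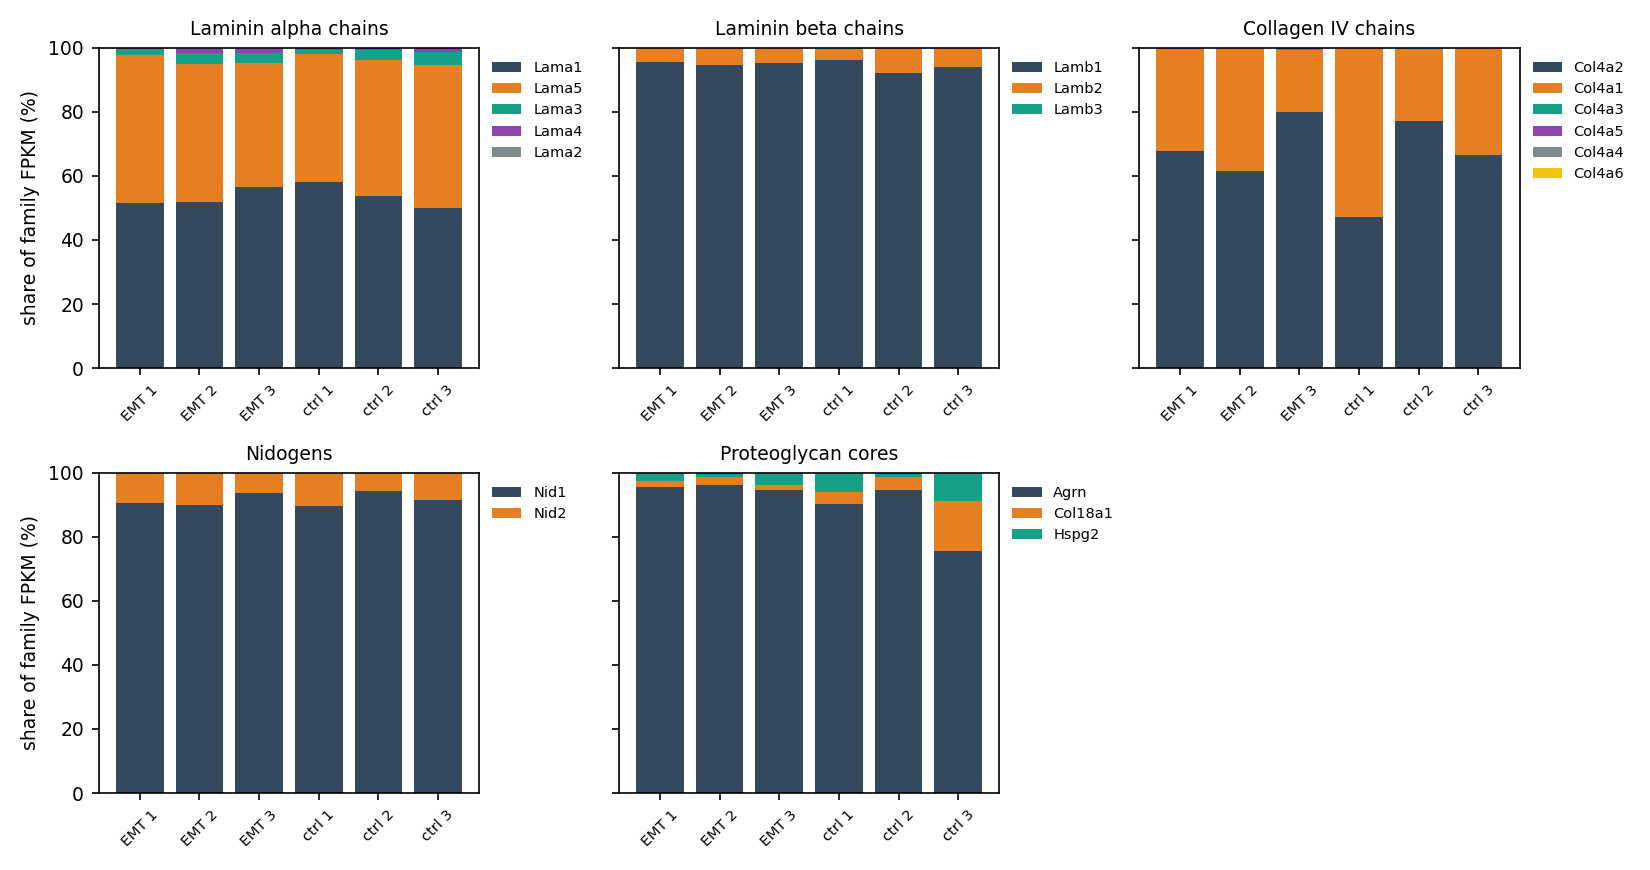
Share (%) of each gene in the summed FPKM of its family, as stacked bars, 1 bar per library with oEV-EMT (EMT) before oEV-ctrl (ctrl). Lamb1 and Nid1 fill most of their families in every library, the alpha chains divide between Lama1 and Lama5, and the share of Col4a1 varies most, from 19.3% to 52.8%.

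Most other basement membrane genes were silent or low. Of 30, 24 were under 1 FPKM in every library and 6 were tested. At an unadjusted p of at most 0.05, 0 of these 6 were higher or lower, against 12.8% and 2.55% of all genes tested. All 6 overlapped between groups. The highest were Tinagl1, which encodes a secreted matrix protein that binds laminin and integrins, with a mean of 33.5 FPKM, and Fbln1, the fibulin-1 gene, with 10.1 FPKM. Smoc1 and Nid2 were at 2.49 and 1.61 FPKM. Their median relative log2 fold change was -0.04, against 0.14 for the 8 members tested other than Agrn, of which 5 lay above the median gene. Without oEV-EMT 1 the median of these 8 was -0.09.

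Among 19 receptors of the basement membrane, 7 were tested. At an unadjusted p of at most 0.05, 2 were higher and 0 were lower, against 12.8% and 2.55% of all genes tested. Itgav, the integrin alpha v chain, was at 2.23, 2.78 and 2.77 FPKM with oEV-EMT and at 0.732, 1.12 and 0.517 FPKM with oEV-ctrl (log2 fold change 1.01, SE 0.21, adjusted p = 0.118, limma). Itgav passed the filter on low values through its oEV-EMT levels, since oEV-ctrl 1 and 3 lay under 1 FPKM. Its p-value and its place among the 2 are therefore descriptions. Itga5, the alpha chain of the fibronectin receptor, was at 4.44, 2.2 and 1.49 FPKM with oEV-EMT and at 1.15, 1.24 and 1.3 FPKM with oEV-ctrl (adjusted p = 0.303, limma). Both integrin chains lay higher without overlap, a pattern that 18.1% of all genes tested had, and neither passed the threshold on adjusted p. Of the listed receptor genes linked to agrin, Dag1, the dystroglycan gene, had a mean of 13.7 FPKM and a log2 fold change of -0.16 (adjusted p = 0.752, limma). Lrp4, too low to be tested, was at 0.372, 0.167 and 0.118 FPKM with oEV-EMT and at 0.0999, 0.146 and 0.167 FPKM with oEV-ctrl. Musk, the kinase of the neuromuscular junction, was at 0 in every library. Besides Dag1, the most abundant receptors were Sdc4, a syndecan with heparan sulfate chains, at a mean of 252 FPKM, Itgb1, the beta chain of the laminin-binding integrins, at 16.8 FPKM, Itga6, their alpha6 chain, at 7.9 FPKM and Itgb5 at 5.07 FPKM. The median relative log2 fold change of the receptors tested was 0.32.

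The genes that fold, modify and export collagens and laminins were expressed in most cases, with 16 of 18 tested. At an unadjusted p of at most 0.05, 2 were higher, Kdelr2 and P4ha1, and 0 were lower, against 12.8% and 2.55% of all genes tested. Their median relative log2 fold change was 0.03. The highest were Ppib, a prolyl isomerase of the endoplasmic reticulum, at a mean of 380 FPKM and the vesicle coat gene Sec13 at 202 FPKM. Kdelr2, Sar1a and P4hb were at 74.7, 71.9 and 66.2 FPKM. Of 18 genes of heparan sulfate synthesis and editing, which build the sugar chains of agrin and perlecan, 10 were tested, and 0 were higher or lower at an unadjusted p of at most 0.05. They were led by Ext2, a chain-elongating enzyme, at a mean of 7.14 FPKM, and had a median relative log2 fold change of -0.11.

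Of 17 matrix proteases and inhibitors, 7 were tested, of which 2 were higher (Timp1 and Ctsb) and 1, Adam10, was lower at an unadjusted p of at most 0.05. The shares of all genes tested were 12.8% higher and 2.55% lower. Timp1, an inhibitor of matrix metalloproteinases, was at 13.7, 14.8 and 13.5 FPKM with oEV-EMT and at 5.42, 8.86 and 8.26 FPKM with oEV-ctrl (log2 fold change 0.84, SE 0.23, adjusted p = 0.167, limma). Ctsb, the lysosomal protease cathepsin B, was at 51, 36.3 and 28.4 FPKM with oEV-EMT and at 18.4, 18.8 and 27.4 FPKM with oEV-ctrl (adjusted p = 0.216, limma). For both, the groups did not overlap, and neither passed the threshold on adjusted p. Timp3 lay lower without overlap, at 1.06, 1.09 and 0.572 FPKM with oEV-EMT and at 1.22, 1.7 and 1.59 FPKM with oEV-ctrl (adjusted p = 0.386, limma). The list thus held 2 genes above and 1 below without overlap, against 18.1% and 4.34% of all genes tested. Ctsl, cathepsin L, was the most abundant at a mean of 415 FPKM. The median relative log2 fold change of the 7 was 0.03.

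**Figure D4:**
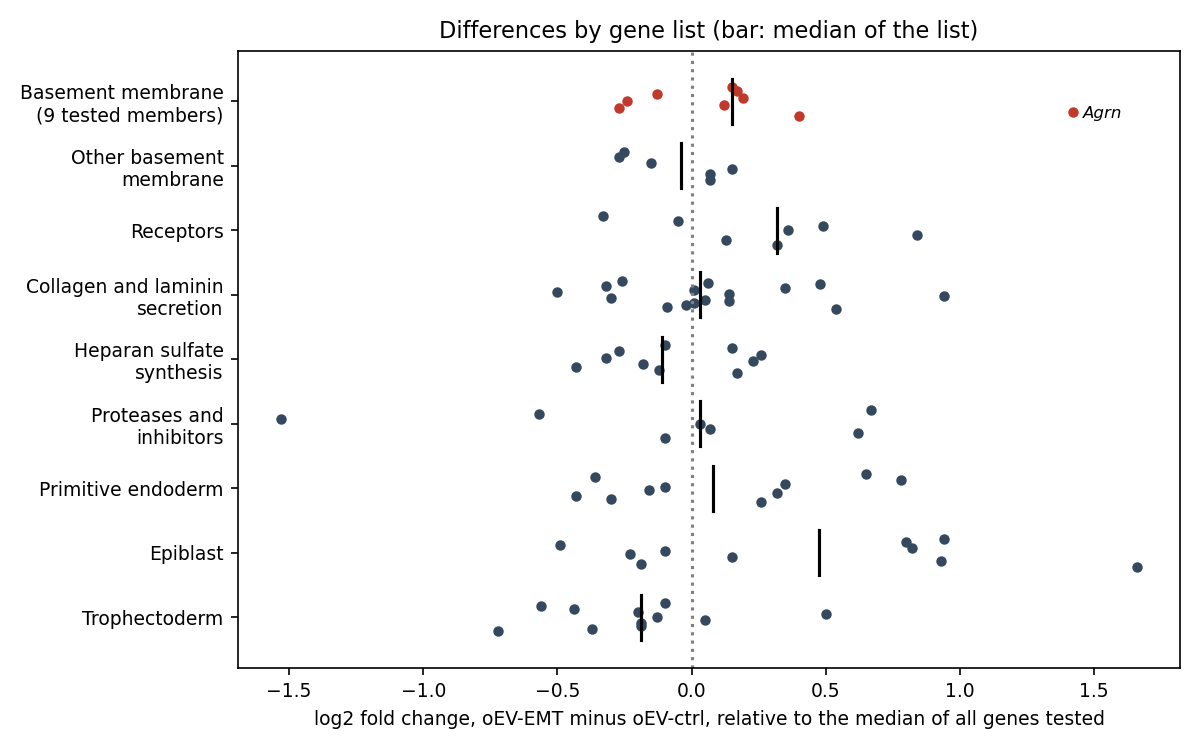
Relative log2 fold change (oEV-EMT minus oEV-ctrl, after the median of all genes tested is subtracted) of each gene tested, by list, with a black bar at the median of each list. Agrn lies apart from the other 8 basement membrane genes tested, which lie between -0.27 and 0.40, and the list medians run from -0.19 in trophectoderm markers to 0.48 in epiblast markers.

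The lineages of the blastocyst were followed by their markers, since a pool mixes them. In such pools more cells of a type and more RNA per cell cannot be told apart. Of 15 primitive endoderm markers, 10 were tested, with a median relative log2 fold change of 0.08. At an unadjusted p of at most 0.05, 2 of them were higher and 0 lower, against 12.8% and 2.55% of all genes tested. Their summed level was 150 to 287 FPKM in oEV-EMT and 202 to 253 FPKM in oEV-ctrl. Gata4, a transcription factor of the lineage, was at 11.3, 7.6 and 7.46 FPKM with oEV-EMT and at 5.07, 4.19 and 4.17 FPKM with oEV-ctrl (log2 fold change 0.82, adjusted p = 0.174, limma). Its partner Gata6 had a log2 fold change of -0.19 and the endocytic adaptor Dab2 one of -0.26. The defining markers of the lineage thus did not lie on one side.

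Epiblast markers divided. Of 10, all tested, 5 were higher and 0 lower at an unadjusted p of at most 0.05, against 12.8% and 2.55% of all genes tested, and 0 passed on adjusted p (lowest 0.101, limma). The summed level was 229 to 351 FPKM in oEV-EMT and 104 to 162 FPKM in oEV-ctrl. The 5 were Utf1, Nanog, Gdf3, Pou5f1 and Fgf4, whereas the log2 fold changes of Sox2, Esrrb and Prdm14 were -0.32, -0.06 and -0.02. The median relative log2 fold change of the list was 0.48, with 6 of 10 above the median gene. Trophectoderm markers summed to 5004 to 7210 FPKM in oEV-EMT and 7148 to 7501 FPKM in oEV-ctrl, with 11 of 12 tested and a median relative log2 fold change of -0.19. Of these, Elf5 was higher and Dppa1 lower at an unadjusted p of at most 0.05. The part of these lineage levels in the difference of Agrn was not tested.

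Length was considered because 7 of the 9 members tested have a longest transcript over 6000 bases. Across 11631 genes, longer transcripts had slightly lower relative log2 fold changes (Spearman's rho of -0.11 across genes, which are not independent replicates). The median was -0.15 for transcripts of 6000 to 8000 bases and -0.19 for those over 8000 bases. Lama1, Lama5 and Agrn, in the longest class, had 0.15, 0.17 and 1.42. With a length offset removed from each library, the median relative log2 fold change of the 8 members other than Agrn was 0.28 and the log2 fold change of Agrn was 1.62.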

How the data were processed

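RNA from 6 pools of blastocysts was sequenced in 2 groups of 3. According to the methods and labels, the authors aligned the reads, assembled transcripts with StringTie and used mm10. The aligner is not given in the sources used here. The authors deposited 1 value per gene and library. The methods speak of TPM, but library sums exceed 1000000 and differ (1293175 to 1551567), so the deposited values were taken as FPKM. Read totals are not known, and no counting interval was computed. Relative depth came from the smallest steps of FPKM times length in low genes with 1 transcript.

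Symbols and coordinates came from GENCODE M21, to which 55141 identifiers matched. The filter required 1 FPKM or more in 3 or more libraries, and 9 of 10 members passed it. On log2(FPKM + 1), limma 3.58.1 in R 4.3.3 (trended, robust) was fitted to 11924 genes with Benjamini-Hochberg adjustment. The procedure was tested on simulated data. Members and lists were chosen with earlier results of these data known. All members were named, and from other lists up to 5 genes by mean FPKM, those past an unadjusted p of 0.05 without overlap, and the 5 genes most correlated with Agrn. A gene that this rule would name is not reported here. The planned ratios, Lama5 to Lama1 and Col4a1 to Col4a2, were compared by exact permutation tests, and the other ratios were not tested. Identical stretches of 50 bases were shared with other genes by 3.22% of Nid1 and 1.1% of Sparc and by none of the other 8 members. Alternatives covered scaling, filter, pseudocount, length, library weights, a replicate block and the removal of single libraries. Plots were made with matplotlib 3.10.9.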

Additional observations from a re-analysis of the deposited data

How the results depend on the processing

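No member other than Agrn, which was not tested, passed both thresholds under any of 14 alternatives, and Lama1, Lama5, Lamc1, Col4a2, Sparc and Agrn kept a positive log2 fold change under all of them. These signs are those before the shift of the median gene is subtracted. Without oEV-EMT 1 the median gene was at 0.14, and Lama1, Lama5, Lamc1 and Col4a2 lay under it at 0.02 to 0.12. Sparc was at 0.14 there and Agrn at 1.20. Over all genes, 104 passed both thresholds with library weights and 0 to 17 when 1 library was left out, against 0. Deviations from the group means correlated at 0.119, -0.0442 and 0.0388 between same-numbered libraries, and at -0.135 to 0.122 between the others. With 3 libraries per group these values cannot decide whether same-numbered pools were paired, which the sources used here do not state. A fit with the replicate block called 21 genes, against 0 without it. Higher and lower genes at an unadjusted p of 0.05 numbered 779 and 765 with median-of-ratios scaling, 550 and 963 with upper quartile scaling and 1921 and 192 with a total of 1000000, against 1527 and 304, while the median log2 fold change of all genes was 0.01, -0.04 and 0.23. Lamc1 overlapped between groups with median-of-ratios and with upper quartile scaling, so that members without overlap numbered 0 in both. Of all genes tested, 9.94% and 7.59% lay above without overlap there, and 10.2% and 12.5% below. Members without overlap numbered 2 with the length offset (Lamc1 and Agrn, both above, against 9.34% of genes above and 9.78% below). They numbered 1 to 4 when 1 library was left out, against 21.8% to 30.6% of genes above and 5.89% to 12.6% below. All of these members lay above, apart from Nid1, which lay below without oEV-EMT 1. The 4 were Lama1, Lama5, Lamc1 and Agrn without oEV-EMT 3 (30.6% of genes), and Agrn had been chosen for its level. Weights and the block leave the values as they are and give no such count. The sign of Lamb1 turned to -0.15 (median-of-ratios), -0.22 (upper quartile), -0.01 (length offset), -0.03 (weights), and -0.16, -0.05 and -0.02 without oEV-EMT 1, oEV-ctrl 2 and oEV-ctrl 3 (range -0.16 to 0.18 over single libraries left out). Col4a1 turned to 0.00 with a total of 1000000, 0.19 with weights, 0.26 without oEV-EMT 3 and 0.46 without oEV-ctrl 1 (range -0.47 to 0.46). Nid1 turned to 0.06 and 0.08 without oEV-EMT 2 and 3 (range -0.42 to 0.08). The log2 ratio of Lama5 to Lama1 turned to -0.06, -0.01 and -0.07 without oEV-EMT 1, oEV-EMT 2 and oEV-ctrl 1 (range -0.07 to 0.14), and that of Col4a1 to Col4a2 to 0.00 and 0.12 without oEV-EMT 3 and oEV-ctrl 1 (range -0.85 to 0.12). The cause was not tested. The members' median ranged from 0.08 to 0.47. The standard errors of the 8 members with a test ran from 0.24 to 0.49 on the log2 scale. The lowest levels rest on few fragments, about 30 steps for Hspg2 in oEV-ctrl 2 but 315 for Agrn in oEV-ctrl 3.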

Other observations

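Besides Agrn, some genes of matrix handling differed widely between libraries of 1 group, and both named here were chosen after their values were seen. Mia3, which encodes TANGO1, a protein needed to export bulky collagens from the endoplasmic reticulum, was at 0.874, 13.4 and 10.6 FPKM with oEV-EMT and at 0.314, 0.598 and 13.7 FPKM with oEV-ctrl. High and low values of Mia3 thus occurred in both groups, and its log2 fold change was 1.11 (SE 1.35, adjusted p = 0.737, limma). Adam10, a protease that sheds membrane proteins, was at 1.38, 0.749 and 0.743 FPKM with oEV-EMT and at 7.04, 1.14 and 6.12 FPKM with oEV-ctrl. Adam10 was low in oEV-ctrl 2 as in all oEV-EMT libraries, with a log2 fold change of -1.36 (SE 0.48, adjusted p = 0.253, limma).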
